A study of Aspergillus nidulans with 4 samples.

Results

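The ergosterol and sterol genes of the filamentous fungus Aspergillus nidulans were taken as all genes whose deposited description holds the word sterol. The rule gave 48 genes, of 7752 with sense counts in any of the 4 deposited sense tables, and 46 of the 48 had counts from all 4 libraries. The rule used descriptions and no measured values, but it also names AN7211 and AN8907, which were known from earlier results to be among the lowest genes in fructose with urea. Strain biA1, used as wild type, was grown in minimal medium as mycelium, at 37 °C and over 9 to 12 h. The libraries came from 0.1% fructose with urea, 0.1% fructose with 10 mM ammonium tartrate, 1% glucose with urea and 1% glucose with 10 mM ammonium tartrate. For urea the labels give 2 concentrations, 10 mM per sample and 5 mM in the growth protocol. Fructose was described by the submitters as non-repressing for carbon use and glucose as repressing, and urea as non-repressing for nitrogen use and ammonium as repressing. Each library held pooled RNA of 3 cultures, so there is 1 library per condition, no replicate check and no test of the conditions. The words higher and lower describe these libraries. Tartrate was present only with ammonium, and the amount of sugar changed with its kind.

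Ergosterol is the main sterol of fungal membranes and takes the place that cholesterol has in animals. Acetyl-CoA is built into mevalonate and then into farnesyl diphosphate, farnesyl units are joined to squalene, squalene is oxidised and closed to lanosterol, and a series of demethylations, isomerisations, desaturations and reductions turns lanosterol into ergosterol. Several of the later enzymes use molecular oxygen, heme or iron, and the pathway holds the targets of azole, allylamine and morpholine antifungals. Free sterols are stored as steryl esters, and in fungi the pathway is controlled by transcription factors of the sterol regulatory element binding family.

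The sense counts came to 812637 in fructose with urea, 547041 in fructose with ammonium, 1698692 in glucose with urea and 2606076 in glucose with ammonium. Levels are given in CPM, the counts of a gene scaled to these sums. The limit that a count of 0 allows, 3 counts, lies at 3.69, 5.48, 1.77 and 1.15 CPM in the same order of libraries. CPM values of different genes are not corrected for gene length and are compared only across libraries. Ratios are log2 ratios of counts scaled by TMM, a trimmed mean of gene ratios, with a prior count of 1, urea over ammonium and fructose over glucose. The intervals in parentheses are exact 95% Clopper-Pearson intervals and cover counting error only. In bulk RNA, fewer cells of a type and less RNA per cell cannot be told apart. Of 7 conidiation markers, 2 were listed: brlA had 16 counts in fructose with urea, 3 in fructose with ammonium and 0 in glucose with urea, and wA had 4 in fructose with urea, 7 in fructose with ammonium and 4 in glucose with ammonium. Their part in the results was not tested.

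Sterol transcripts as a group were lowest in fructose with urea and next lowest in fructose with ammonium. The 48 genes together took 0.350% of sense counts in fructose with urea (0.337% to 0.363%), 1.45% in fructose with ammonium (1.42% to 1.48%), 2.07% in glucose with urea (2.05% to 2.10%) and 1.78% in glucose with ammonium (1.76% to 1.80%). Much of that sum came from the C-4 methyl oxidase genes AN6973 and AN8907. Without them the share was 0.306%, 0.518%, 0.754% and 0.697% in the same order, so the lowest library remained fructose with urea. Of the 46 genes with counts from all 4 libraries, 29 had their lowest CPM in fructose with urea, which is 63.0%, against 32.8% of the 6789 genes of the whole series with counts from all 4 libraries. The genes divided by role, with exceptions. With urea, 24 of the 28 genes of the synthesis steps were lower in fructose than in glucose. Of all 7135 genes past the abundance minimum given below, 3609 were lower in fructose in the same comparison. Among the 28 synthesis genes, AN3817, AN3869, AN7575 and AN2684 instead had their highest CPM in fructose with urea. For AN3817 and AN3869 this order depends on the scaling. Their TMM-scaled nitrogen ratios in fructose were -0.13 (-0.86 to 0.62) and -0.12 (-1.09 to 0.88). Of the 10 genes for esters, modification and transport, 6 were highest there, against 40.1% of all 6789 genes, as the plot of levels by gene shows.

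**Figure D1:**
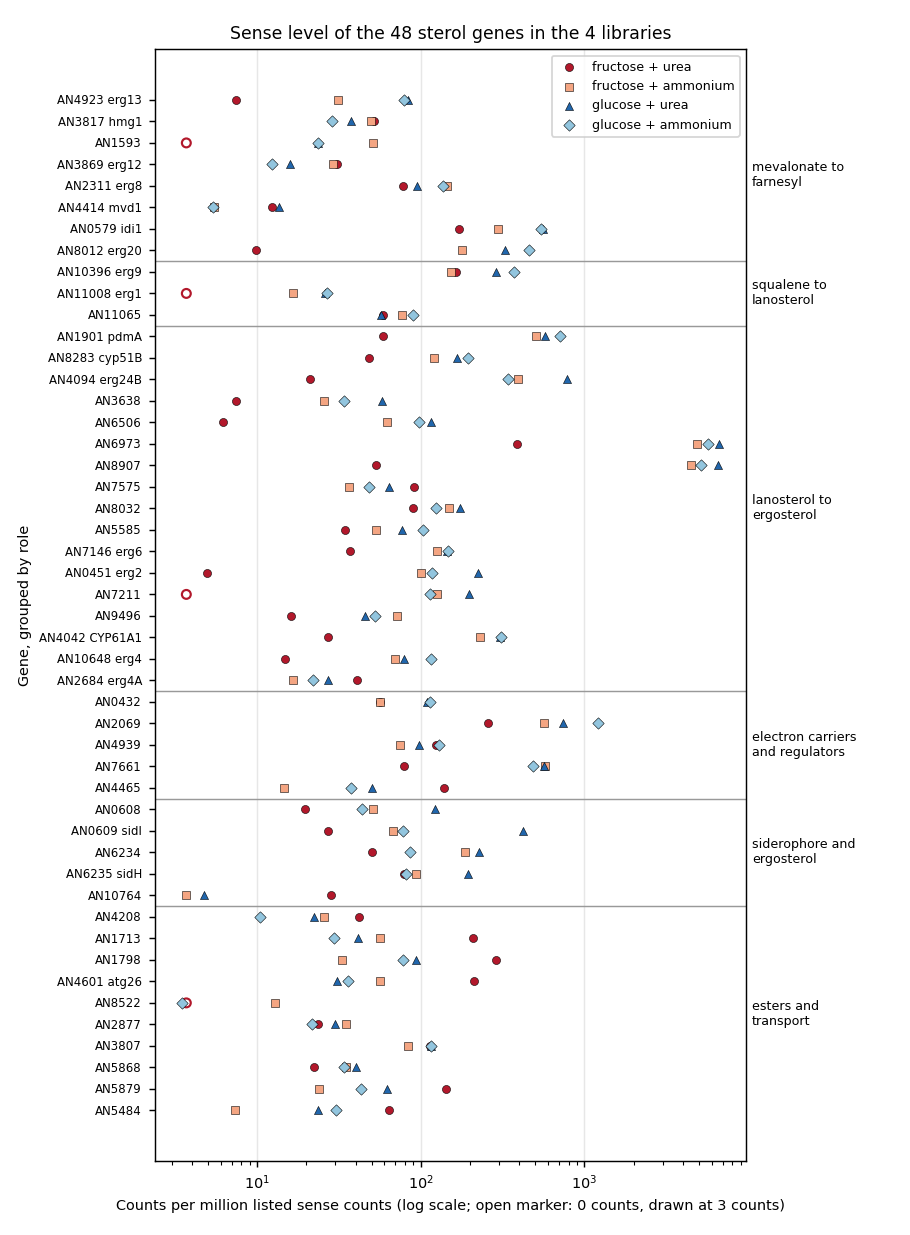
Sense level of each of the 48 genes in the 4 libraries, in CPM on a log axis, with genes grouped by role down the page; open markers are 0 counts drawn at 3 counts. The red circles of fructose with urea lie left of the other markers for most genes of the lanosterol to ergosterol block and right of them for 6 of 10 genes of the esters and transport block, against 40.1% of all genes.

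Of the 46 sterol genes past the abundance minimum, a deposited mean log2 CPM of 3, a 4-fold or larger deficit in urea relative to ammonium was found for 15 when fructose was the carbon source, against 11% of all 7203 genes past the minimum, and 5 were at least 4-fold higher, against 11.4%. The median ratio was -0.95, against 0.07 over all genes. With urea as the nitrogen source, 20 of 47 were at least 4-fold lower in fructose than in glucose, against 15.2% of 7135 genes, and 3 were at least 4-fold higher, against 14.6%, or 1 with a prior count of 5. The median was -1.56, against -0.03 over all genes. These comparisons share the library of fructose with urea, so they are not independent. The differences were far smaller in the comparisons without that library. In glucose, 1 of 46 was at least 4-fold higher in urea than in ammonium, against 1.34% of 6354 genes, and 0 were 4-fold lower, against 0.535%, with a median of 0.28 against 0.00 over all genes. With ammonium, 0 of 45 were at least 4-fold higher in fructose than in glucose, against 8.33% of 6647 genes, and 1 was 4-fold lower, against 7.01%, with a median of -0.27 against -0.11 over all genes.

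Over the 28 genes of the synthesis steps from acetyl-CoA to ergosterol, the contrast was one-sided in the comparisons with fructose and urea. In fructose, 13 of the 27 past the minimum lay 4-fold or more below ammonium in urea, against 11% of all genes. Above it lay 0, against 11.4%, and the median was -1.93, against 0.07 over all genes. With urea, 16 of 28 were at least 4-fold lower in fructose than in glucose, against 15.2%, and 0 were higher, against 14.6%. The median was -2.41, against -0.03 over all genes. In glucose 0 of 28 passed 4-fold by nitrogen source (median 0.10), near the 0.535% lower and 1.34% higher of all genes. With ammonium 0 of 27 passed it by carbon source (median -0.43), against 7.01% lower and 8.33% higher of all genes.

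**Figure D2:**
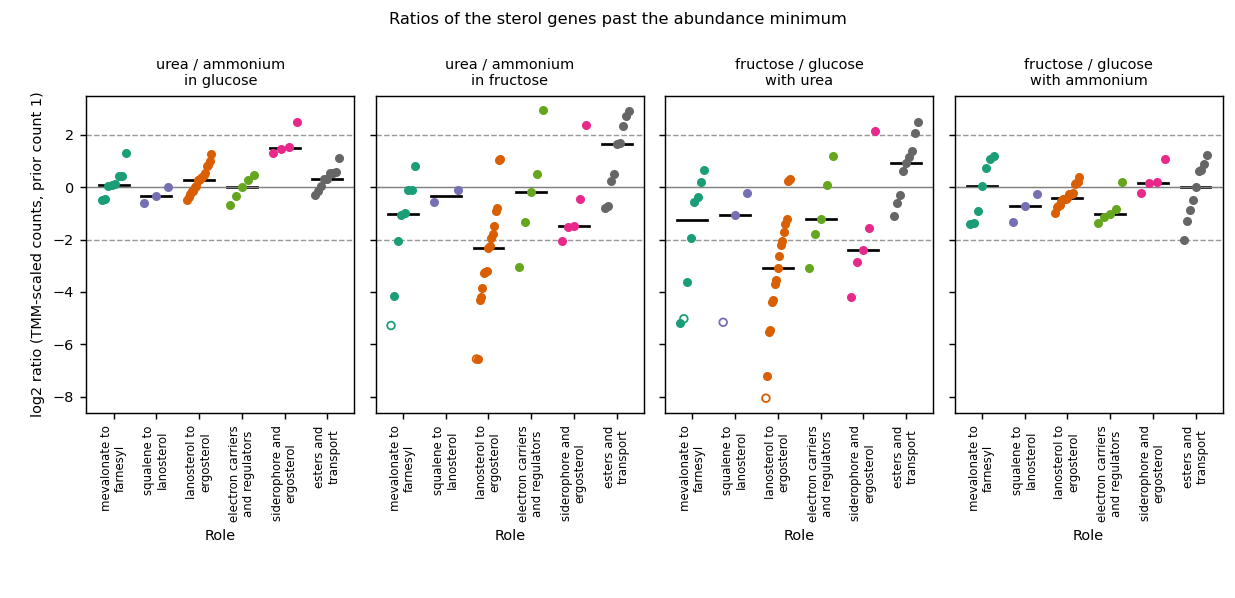
Log2 ratios of the sterol genes past the abundance minimum in the 4 comparisons, by role; each point is 1 gene, black bars are medians, dashed lines mark 4-fold and open circles are genes at 0 counts in fructose with urea. The lanosterol to ergosterol genes have medians of -2.32 and -3.09 in the middle panels, which both use the library of fructose with urea, and 0.29 and -0.43 in the outer panels.

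The 8 genes up to farnesyl diphosphate differed among themselves. AN8012 (erg20 in RefSeq, the symbol of farnesyl diphosphate synthase in yeast), described as a bifunctional enzyme of sterol metabolism, had 9.84 CPM in fructose with urea, 177 CPM in fructose with ammonium, 327 CPM in glucose with urea and 460 CPM in glucose with ammonium. Its nitrogen ratio in fructose was -4.17 (-5.62 to -3.33) and its carbon ratio with urea -5.20 (-6.54 to -4.33), with fructose with urea far below the other libraries. AN4923 (erg13), for the HMG-CoA synthase that precedes mevalonate formation, had 6, 17, 141 and 207 counts in the same order. In CPM, fructose with urea was lowest for AN4923 and fructose with ammonium next, with ratios of -2.06 (-3.90 to -0.86) by nitrogen in fructose and -3.61 (-5.23 to -2.60) by carbon with urea.

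HMG-CoA reductase, the enzyme that makes mevalonate and a main control point of the pathway, is described for a pair of genes that parted in fructose with urea. AN1593, which the description also places in a diterpene cluster, had 0 counts in fructose with urea, 28 in fructose with ammonium, 40 in glucose with urea and 61 in glucose with ammonium. It was at least 15.9-fold lower in urea than in ammonium in fructose and at least 7.68-fold lower in fructose than in glucose with urea. AN3817 (hmg1) had 42, 27, 64 and 75 counts in the same libraries, or 51.7, 49.4, 37.7 and 28.8 CPM. Its nitrogen ratio in fructose was -0.13 (-0.86 to 0.62).

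The remaining mevalonate genes stayed within 4-fold in every comparison in which they were listed. The isopentenyl-diphosphate isomerase gene AN0579 (idi1) came nearest, with 172 CPM in fructose with urea, 298 CPM in fructose with ammonium, 555 CPM in glucose with urea and 544 CPM in glucose with ammonium, and a carbon ratio with urea of -1.95 (-2.22 to -1.70). The phosphomevalonate kinase gene AN2311 (erg8) had 63, 79, 161 and 358 counts in the same order and stood at -1.08 (-1.60 to -0.60) by nitrogen in fructose. The mevalonate kinase gene AN3869 (erg12) had 25, 16, 27 and 32 counts, or 30.8, 29.2, 15.9 and 12.3 CPM. The diphosphomevalonate decarboxylase gene AN4414 (mvd1) had 10, 3, 23 and 14 counts. For AN3869 and AN4414 the interval of the nitrogen ratio in fructose held 0, at -1.09 to 0.88 and -0.99 to 3.47.

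Of the squalene and lanosterol genes, the squalene monooxygenase gene AN11008 (erg1), the target of allylamines, had 0 counts in fructose with urea, 9 in fructose with ammonium, 44 in glucose with urea and 70 in glucose with ammonium. It was at least 8.45-fold lower in fructose than in glucose with urea, and it lay below the abundance minimum in the nitrogen comparison in fructose. The squalene synthase gene AN10396 (erg9) had 165 CPM in fructose with urea, 154 CPM in fructose with ammonium, 287 CPM in glucose with urea and 373 CPM in glucose with ammonium. Both fructose libraries of AN10396 lay below both glucose libraries, with carbon ratios of -1.07 (-1.36 to -0.79) with urea and -1.32 (-1.66 to -1.002) with ammonium, while its nitrogen ratio in fructose was -0.10 (-0.50 to 0.31). The oxidosqualene-lanosterol cyclase gene AN11065 had 48, 42, 97 and 233 counts in the same order and stayed between 57.1 and 89.4 CPM.

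Of the 17 genes for the steps from lanosterol to ergosterol, 10 were 4-fold or more lower in urea in fructose, against 11% of all genes, and 12 were at least 4-fold lower in fructose with urea as nitrogen source, against 15.2%. Of the 17, 0 were 4-fold higher in either. Both counts include AN7211 and AN8907, which the rule names and which were known to be low there. Sterol C-14 demethylase, the target of azoles, is described for AN1901 (pdmA) and AN8283 (cyp51B). AN1901 had 59.1 CPM in fructose with urea, 506 CPM in fructose with ammonium, 578 CPM in glucose with urea and 711 CPM in glucose with ammonium, with ratios of -3.27 (-3.77 to -2.85) by nitrogen in fructose and -3.54 (-4.01 to -3.14) by carbon with urea. AN8283 had 47.99, 121, 167 and 193 CPM, with smaller ratios of -1.50 (-2.14 to -0.94) and -2.04 (-2.59 to -1.58). In both genes fructose with urea was the lowest library.

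The C-14 reductase gene AN4094 (erg24B), for the step after demethylation, had 17 counts in fructose with urea, 214 in fructose with ammonium, 1334 in glucose with urea and 894 in glucose with ammonium. It was low in fructose with urea, and in glucose it was higher in urea than in ammonium. Its ratios were -4.33 (-5.23 to -3.71) by nitrogen in fructose, -5.44 (-6.28 to -4.81) by carbon with urea and 1.25 (1.12 to 1.37) by nitrogen in glucose.

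The C-4 methyl oxidases, which start the removal of the methyl groups at C-4, are described for 4 genes. AN8907 had 43 counts in fructose with urea, 2444 in fructose with ammonium, 11080 in glucose with urea and 13372 in glucose with ammonium, or 52.9, 4468, 6523 and 5131 CPM. Its nitrogen ratio in fructose was -6.56 (-7.07 to -6.16), with a ratio of 0.40 (0.36 to 0.43) by nitrogen in glucose. AN6973 had 313, 2670, 11330 and 14847 counts, or 385, 4881, 6670 and 5697 CPM, and a nitrogen ratio in fructose of -3.86 (-4.04 to -3.69). The 3 libraries other than fructose with urea thus stayed within 2-fold of each other in CPM for both genes. AN6506, with 5, 34, 196 and 255 counts, and AN3638, with 6, 14, 98 and 88, also had their lowest CPM in fructose with urea. Their carbon ratios with urea were -4.31 (-6.14 to -3.25) and -3.09 (-4.72 to -2.06).

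The other enzymes of C-4 demethylation differed less. The C-3 dehydrogenase gene AN8032 had 89.8 CPM in fructose with urea, 148 CPM in fructose with ammonium, 172 CPM in glucose with urea and 124 CPM in glucose with ammonium, and a nitrogen ratio in fructose of -0.91 (-1.40 to -0.45). A gene of the same description, AN7575, was instead highest in fructose with urea, at 91.1 CPM against 36.6 CPM in fructose with ammonium, a ratio of 1.09 (0.39 to 1.91). Its counts were 74, 20, 108 and 126 in the order of the libraries above. The C-3 keto reductase gene AN5585, with 28, 29, 130 and 267 counts, stood at -0.79 (-1.62 to -0.02) by nitrogen in fructose and at -1.40 (-2.06 to -0.82) by carbon with urea.

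The genes described as sterol C-8 isomerases, which move a double bond within the ring, had 0 and 4 counts in fructose with urea. AN7211 had 0 counts in fructose with urea, 69 in fructose with ammonium, 336 in glucose with urea and 295 in glucose with ammonium, at least 39.2-fold lower in urea than in ammonium in fructose and at least 64.5-fold lower in fructose than in glucose with urea. AN0451 (erg2) had 4, 55, 382 and 305 counts, with ratios of -4.18 (-6.48 to -3.11) by nitrogen in fructose and -5.54 (-7.67 to -4.41) by carbon with urea. Both isomerase genes were also higher in urea in glucose, at 0.85 (0.63 to 1.09) for AN7211 and 0.99 (0.77 to 1.22) for AN0451. AN9496, known from a predicted cholestenol isomerase domain, had 13, 39, 77 and 137 counts and a nitrogen ratio in fructose of -2.25 (-3.38 to -1.42).

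Of the genes that act on the side chain, AN4042 (CYP61A1, erg5) is for the cytochrome P450 that desaturates C-22. AN4042 had 27.1 CPM in fructose with urea, 230 CPM in fructose with ammonium, 303 CPM in glucose with urea and 310 CPM in glucose with ammonium. Its nitrogen ratio in fructose was -3.22 (-4.01 to -2.63). AN7146 (erg6), which adds the C-24 methyl group that sets ergosterol apart from cholesterol, had 36.9, 126, 144 and 146 CPM and a carbon ratio with urea of -2.20 (-2.83 to -1.68). AN10648 (erg4), for the C-24 sterol reductase, had 14.8, 69.5, 78.9 and 115 CPM and a carbon ratio with urea of -2.61 (-3.67 to -1.83). In all 3 genes fructose with urea stood apart below the rest. AN2684 (erg4A), described only as an oxidoreductase of sterol metabolism, had 33, 9, 46 and 57 counts, or 40.6, 16.5, 27.1 and 21.9 CPM. Its nitrogen ratio in fructose was 1.04 (0.01 to 2.35).

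Where several genes carry the same step, their shares of the counts of that step need no scaling between libraries. In 4 steps of synthesis the share in fructose with urea lay apart from those in the other 3 libraries. Shares were not taken for the C-8 isomerase genes AN7211 and AN0451, which had 0 and 4 counts in fructose with urea. AN8907 held 11.7% of the counts of the C-4 methyl oxidase genes in fructose with urea (8.61% to 15.5%), 47.3% in fructose with ammonium (46.0% to 48.7%), 48.8% in glucose with urea (48.1% to 49.5%) and 46.8% in glucose with ammonium (46.2% to 47.4%). AN6973 held 85.3% in fructose with urea, and between 49.9% and 52.0% in the other libraries. AN1901 held 55.2% of the C-14 demethylase counts in fructose with urea (44.1% to 65.9%), 80.8% in fructose with ammonium (76.2% to 84.8%), 77.6% in glucose with urea (75.2% to 79.9%) and 78.6% in glucose with ammonium (76.9% to 80.3%).

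AN7575 held 50.3% of the C-3 dehydrogenase counts in fructose with urea (42.0% to 58.7%), 19.8% in fructose with ammonium (12.5% to 28.9%), 26.9% in glucose with urea (22.7% to 31.6%) and 28% in glucose with ammonium (23.9% to 32.4%). AN1593 held 0% of the 42 HMG-CoA reductase counts in fructose with urea, with an upper limit of 8.41%, and 50.9% in fructose with ammonium (37.1% to 64.6%), 38.5% in glucose with urea (29.1% to 48.5%) and 44.9% in glucose with ammonium (36.3% to 53.6%). The interval of fructose with urea overlapped no other in any of these 4 steps. For the sterol esterase genes, the library that stood apart was fructose with ammonium, where AN1798 held 36.7% (23.4% to 51.7%), against 58.2% in fructose with urea (53.2% to 63.0%), 69.3% in glucose with urea and 72.6% in glucose with ammonium. These shares were chosen after the values were seen, and the sources used here do not give how reads matching several genes were counted.

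**Figure D3:**
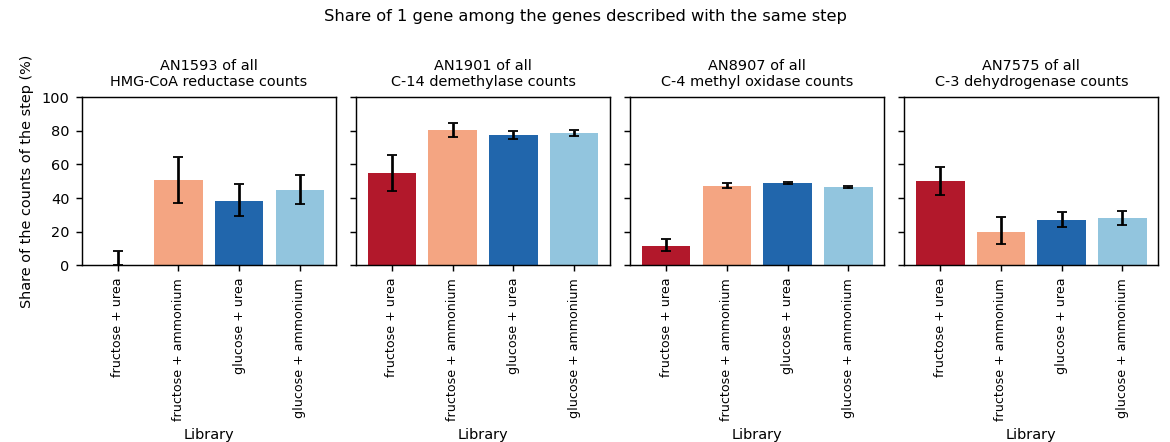
Share of 1 gene in the counts of all genes described with the same step, in each library; bars start at 0 and error bars are exact 95% Clopper-Pearson intervals for counting error. In fructose with urea AN1593, AN1901 and AN8907 hold 0%, 55.2% and 11.7%, below the other libraries, and AN7575 holds 50.3%, above them.

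Among the genes around the pathway, AN7661, described by sterol response element binding of its orthologs, a property of the family that controls sterol synthesis, had 64 counts in fructose with urea, 315 in fructose with ammonium, 958 in glucose with urea and 1262 in glucose with ammonium. In CPM the values were 78.8, 576, 564 and 484, with fructose with urea again alone below the others, and the ratios were -3.04 (-3.48 to -2.68) by nitrogen in fructose and -3.09 (-3.50 to -2.74) by carbon with urea. AN4465, whose orthologs act in the negative regulation of ergosterol synthesis, was instead highest in fructose with urea and lowest in fructose with ammonium. It had 139 CPM in fructose with urea, 14.6 CPM in fructose with ammonium, 50.04 CPM in glucose with urea and 37.6 CPM in glucose with ammonium. Its nitrogen ratio in fructose was 2.94 (2.02 to 4.30). By carbon it stayed within 4-fold, at 1.19 (0.79 to 1.63) with urea and -1.37 (-2.66 to -0.37) with ammonium.

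The electron carrier and heme-binding genes around the pathway, AN2069, AN0432 and AN4939, stayed within 4-fold in every comparison. AN2069, an electron carrier of sterol synthesis, had 258 CPM in fructose with urea, 567 CPM in fructose with ammonium, 735 CPM in glucose with urea and 1210 CPM in glucose with ammonium. It was lower in urea than in ammonium with either sugar, at -1.33 (-1.59 to -1.07) in fructose and -0.67 (-0.76 to -0.57) in glucose. AN0432, with cytochrome b5 reductase activity, was lower in fructose with either nitrogen source, at -1.21 (-1.72 to -0.75) with urea and -1.03 (-1.63 to -0.51) with ammonium. AN4939, a heme-binding activator in its orthologs, had 74.9 to 128.5 CPM.

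A set of 5 genes entered because their descriptions name ergosterol beside siderophores, the small molecules with which fungi take up iron, and mevalonate is a precursor of both. AN0609 (sidI) and AN0608 lie next to each other on chromosome VIII, and AN6235 (sidH) and AN6234 on chromosome I, in the RefSeq annotation of assembly ASM1142v1. AN0609 had 27.1 CPM in fructose with urea, 67.6 CPM in fructose with ammonium, 423 CPM in glucose with urea and 77.5 CPM in glucose with ammonium. Glucose with urea was the high library, and AN0609 was the only sterol gene past 4-fold by nitrogen in glucose, at 2.49 (2.27 to 2.73). AN0608 had 16, 28, 208 and 114 counts, AN6234 had 41, 102, 384 and 224, and AN6235 had 64, 51, 331 and 211. All 3 also had their highest CPM in glucose with urea, with ratios by nitrogen in glucose of 1.53 (1.201 to 1.88), 1.44 (1.21 to 1.69) and 1.31 (1.07 to 1.58). In fructose AN6234 was past 4-fold in the other direction, at -2.05 (-2.64 to -1.55), and AN0609 stood at -1.47 (-2.35 to -0.72). The 5th gene, AN10764, had 23 counts in fructose with urea, 2 in fructose with ammonium and 8 in glucose with urea, and was the only one of the set higher in fructose with urea, with ratios of 2.38 (0.74 to 5.88) by nitrogen in fructose and 2.15 (1.11 to 3.69) by carbon with urea.

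The genes for esters, modification and transport were mixed, with some higher in fructose with urea. Of 9 past the minimum, 3 were 4-fold or more above ammonium in urea in fructose and 0 below it, against 11.4% and 11% of all genes, with a median of 1.65. With urea 2 were at least 4-fold higher in fructose than in glucose, near the 14.6% of all genes, and 0 lower, against 15.2%, with a median of 0.92. The sterol esterase gene AN1798, of a class that releases free sterol from steryl esters, had 289 CPM in fructose with urea and 32.9 CPM in fructose with ammonium. In glucose it had 93.01 CPM with urea and 78.3 CPM with ammonium. Its nitrogen ratio in fructose was 2.89 (2.24 to 3.72). By carbon it stayed within 4-fold, at 1.36 (1.07 to 1.67) with urea and -1.28 (-2.08 to -0.60) with ammonium. AN1713, whose orthologs have several lipase activities besides sterol esterase, had 208, 56.7, 41.2 and 29.5 CPM, with a carbon ratio with urea of 2.05 (1.66 to 2.49). AN4601 (atg26), a sterol glucosyltransferase by its description, had 210, 56.7, 30.6 and 35.7 CPM, and a carbon ratio with urea of 2.48 (2.06 to 2.99). Fructose with urea was the highest library for all 3.

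AN5879, whose orthologs move sterols and lie in the vacuole lumen, had 116 counts in fructose with urea, 13 in fructose with ammonium, 106 in glucose with urea and 112 in glucose with ammonium, with a nitrogen ratio in fructose of 2.32 (1.56 to 3.34). AN5484, with a sterol binding domain, had 52, 4, 40 and 79 counts and a nitrogen ratio in fructose of 2.72 (1.49 to 4.86). It was also the only sterol gene past 4-fold by carbon with ammonium, at -2.002 (-4.01 to -0.68), which is at the threshold, and it was not past it under 3 other scalings. For both genes the low library was fructose with ammonium. The acyltransferase gene AN4208, which makes steryl esters, had its highest CPM in fructose with urea (41.8 CPM) and its lowest in glucose with ammonium (10.4 CPM). The lipid transfer genes AN2877, AN3807 and AN5868 stayed within 4-fold in every comparison, with ratios from -1.09 to 0.63. The steryl deacetylase gene AN8522 had at most 9 counts in any library.

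The nitrogen comparisons in fructose and in glucose share no library, and 45 sterol genes passed the minimum in both. Subtracting the ratio in glucose from that in fructose gave -2 or less for 17 of the 45, which is 37.8% against 12.5% of all 6024 genes, and 2 or more for 3, which is 6.67% against 7.12%. The median difference was -1.26 for the sterol genes and -0.13 for all genes. The most negative values were those of AN7211 at -7.41, which rests on 0 counts in fructose with urea, AN8907 at -6.96, AN4094 at -5.57, AN1593 at -5.34, which also rests on 0 counts, and AN0451 at -5.17. The positive ones were those of AN5484 at 3.03, AN1798 at 2.59 and AN4465 at 2.48. AN7211 and AN8907, which the rule names and which were known to be low in fructose with urea, are among the 17. Each difference rests on 1 library per condition and was not tested.

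**Figure D4:**
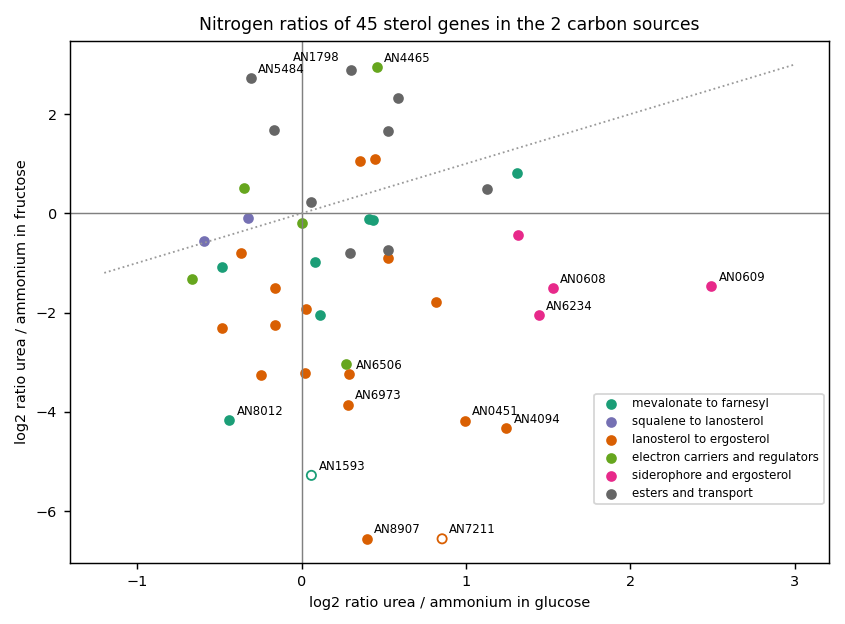
Log2 ratio of urea over ammonium in fructose (vertical) against glucose (horizontal) for the 45 sterol genes past the minimum in both, coloured by role; the dotted line marks equal ratios and open circles are 0 counts in fructose with urea. AN8907 and AN7211 lie near -6.56 on the vertical axis and between 0.40 and 0.85 on the horizontal one.

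Other genes linked to sterols by function were read from lists chosen by words in the descriptions, without the 48 genes. Heme, made in a pathway of its own, is the cofactor of the cytochrome P450 steps. By nitrogen in fructose, 2 of 6 heme synthesis genes were past 4-fold and lower in urea, against 11% of all genes, 0 were higher, against 11.4%, and the median was -1.38. By carbon with urea, 3 of 7 were past 4-fold and lower in fructose, against 15.2% of all genes, and 0 higher, against 14.6% (median -1.44). AN5130 (hem13), for coproporphyrinogen oxidase, had 53 counts in fructose with urea, 1203 in fructose with ammonium, 2885 in glucose with urea and 5732 in glucose with ammonium, with a nitrogen ratio in fructose of -5.24 (-5.70 to -4.88). The aminolevulinate synthase gene hemA (AN2284) stood at -2.67 (-3.35 to -2.13). Of the genes listed by words for fatty acid synthesis and desaturation, 7 of 13 were past 4-fold and lower in urea in fructose, against the same 11%. In this list 0 were higher, against 11.4% (median -2.14). Among the 7 is stcK (AN7814), at -2.39 (-3.52 to -1.57), whose description makes it a gene of the sterigmatocystin cluster. By carbon with urea, 10 of 14 were past 4-fold and lower in fructose, against 15.2%, and 0 higher (median -2.47, or -2.43 with genes at 0 counts set to their bounds). The desaturase gene sdeB (AN4135) had 14, 441, 2083 and 3354 counts in the same order of libraries and a nitrogen ratio in fructose of -5.63 (-6.63 to -4.99).

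Sphingolipids are, beside sterols, a main lipid of the plasma membrane. Of 17 sphingolipid genes past the minimum, 4 were past 4-fold and lower in urea in fructose, against 11% of all genes, and 2 were higher, near the 11.4% of all genes (median -0.38). By carbon with urea 4 were lower in fructose, against 15.2%, and 0 higher, against 14.6% (median -0.52). The higher pair includes AN5000, which had 0 counts in fructose with ammonium and a bound of only 3.32-fold. The gene basA (AN0640), needed for phytosphingosine synthesis, stood at -3.66 (-4.74 to -2.95) and the ceramide synthase gene barA (AN4332) at 3.04 (1.93 to 4.87) by nitrogen in fructose. Of 4 further isoprenoid genes, mainly for attaching prenyl groups to proteins, 0 passed 4-fold in any comparison. The share of all genes was at most 15.2% in either direction, so 4 genes are too few to be told apart from it. The list of squalene and lanosterol words held 0 genes beyond the 48. The list of the sterol regulatory system held 1 listed gene, dscA (AN1075), with a nitrogen ratio in fructose of 0.14 (-0.57 to 0.89). The P450 reductase gene cprA (AN0595), the list of electron donors by itself, stood at -1.63 (-1.89 to -1.39). The other comparisons of these lists do not use the library of fructose with urea. By nitrogen in glucose 1 of 18 sphingolipid genes was lower in urea, and 0 of 7 heme genes and 0 of 12 fatty acid genes passed 4-fold. Of all genes 0.535% were lower and 1.34% higher. By carbon with ammonium, 1 of 7 heme genes, 4 of 18 sphingolipid genes (22.2%) and 2 of 12 fatty acid genes (16.7%) were lower in fructose, against 7.01% of all genes. The list of fatty acid genes held 1 higher gene, stcK (AN7814) at 4.11 (3.30 to 5.47), against 8.33% of all genes.

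Antisense counts, deposited in tables of their own, were also low in fructose with urea for many sterol genes. Of 47 past the minimum in the antisense tables, 17 were past 4-fold and lower in urea in fructose, against 13.3% of 7248 genes, and 3 higher, against 16.3%. With urea 23 of 46 were at least 4-fold lower in fructose, against 17.8% of 7117 genes, and 2 higher, against 14.3%. In glucose 1 of 45 was at least 4-fold higher in urea, against 2.18% of 6515 genes, and 0 lower, against 2.32%. With ammonium 0 of 45 were at least 4-fold higher in fructose, against 9.36% of 6723 genes, and 4 lower, against 13%. AN7211 had 0 antisense counts in fructose with urea, 63 in fructose with ammonium, 169 in glucose with urea and 174 in glucose with ammonium. AN8907 had 30, 950, 4372 and 6603 antisense counts, with an antisense ratio by nitrogen in fructose of -5.39 (-6.02 to -4.92).

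As a share of the counts on both strands, the median antisense share of the sterol genes was 18.6% in fructose with urea, 24.1% in fructose with ammonium, 25.3% in glucose with urea and 29.4% in glucose with ammonium, against 21.0%, 23.9%, 24% and 28.03% over all genes. AN2069 had a high share throughout, at 34.6% in fructose with urea, 44.3% in fructose with ammonium, 40.5% in glucose with urea and 44.99% in glucose with ammonium. AN1901 had more antisense than sense counts in fructose with urea, with 69 and 48, an antisense share of 59.0% (49.5% to 68.0%), against 107 and 277 in fructose with ammonium. Whether antisense counts come from transcripts of the other strand or from reads that lost their strand cannot be told apart here, so the antisense values may not be independent of the sense values.

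The authors' deposited tables, whose names carry a biological coefficient of variation of 0.3 and whose p-values cannot rest on replicates, gave an FDR of 0.05 or less to few sterol genes outside the comparisons with fructose and urea. In the authors' deposited table for nitrogen in fructose, 16 of the 48 were lower in urea, against 11.5% of all listed genes, and 4 were higher, against 9.98%. In the authors' deposited table for carbon with urea, 23 of 47 were lower in fructose, against 18.4%, and 3 higher, against 18.9%. In the authors' deposited table for nitrogen in glucose, 1 was higher in urea, AN0609, against 0.791%, and 0 lower, against 0.217%. In the authors' deposited table for carbon with ammonium, 0 were higher, against 9.78%, and 0 lower, against 5.52%.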

How the data were processed

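Per the labels' protocols, total RNA was depleted of ribosomal RNA and prepared with a ScriptSeq kit. The authors deposited 8 tables, 1 for each of 4 comparisons and 2 strands. Per the file headers, each pairs 2 libraries and holds their whole-number counts. The authors' log2 fold change and mean log2 CPM stand beside a deposited p-value and FDR. HTSeq and edgeR are named in the submitters' processing notes. Aligner, build and annotation: not given in the sources used here. Genes low in both libraries of a comparison are not listed, so totals are not full depth. The 16 normalised columns were not used. Counts of a library were identical in all its tables (0 conflicts).

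Log2 ratios used TMM factors within each table (edgeR 4.0.16, R 4.3.3) and a prior count of 1. Above 20 counts per library they lay within 0.0827 of the deposited values, after the deposited nitrogen signs (ammonium over urea) were turned. Genes were counted as different at 4-fold where the deposited mean log2 CPM reached 3. A gene at 0 counts in 1 library is given as a bound against 3 counts per library, and its ratio with the prior count enters the counts and medians. All such bounds of sterol genes counted as past 4-fold exceeded 4-fold, and setting them to the bound left the medians of the sterol genes as they were. Reads of amplified libraries are not independent molecules, so intervals and floors cover counting error only. The ratio script was tested on simulated data. Symbols came from the deposited tables and from RefSeq (assembly ASM1142v1), where all 48 genes were found; sequences are not shown. The members, roles and lists were chosen with earlier results of these data known, and the shares of genes with the same step were chosen after their values were seen. Every sterol gene could be named, and synthesis genes and those past 4-fold get their counts or CPM in all 4 libraries; from each other list at most 4 genes with the largest ratio could be.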

Additional observations from a re-analysis of the deposited data

Results flagged for a closer look

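In 4 sterol genes the nitrogen ratio had opposite signs in the 2 carbon sources, with both ratios past 2-fold and both intervals on their own side of 0. The difference, fructose minus glucose, was -5.57 for the C-14 reductase gene AN4094, -3.96 for AN0609, -3.49 for AN6234 and -3.03 for AN0608. AN4094 had 17 counts in fructose with urea against 214 in fructose with ammonium, and 1334 in glucose with urea against 894 in glucose with ammonium. How many of all genes meet the same rule is not given here, so the count cannot be read as particular to sterol genes. Each condition is 1 library, so the difference was not tested.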

How the results depend on the processing

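Alternatives were 3 other scalings, prior counts of 5 and 0.5, the authors' log2 fold change, no abundance minimum, genes with counts from all 4 libraries, and leaving out AN7211 and AN8907. Under these 9, the sterol genes 4-fold lower numbered 11 to 17 (15 as reported) by nitrogen in fructose and 18 to 20 (20 as reported) by carbon with urea, and every median kept its sign. Some of these alternatives change the number of sterol genes, and the share of all genes under each is not given here. The ranges thus do not show how the excess over all genes changed. The 4-fold higher genes by carbon with urea numbered 1 with a prior count of 5. AN5484 by carbon with ammonium was no longer past 4-fold (0 genes) under total count, median-of-ratios and common TMM scaling and with a prior count of 5. Total count scaling moved the median of all genes by 0.19 for nitrogen in fructose and 0.26 for carbon with urea. With synthesis steps only, the medians were -1.93 for nitrogen in fructose and -2.41 for carbon with urea, and 0 genes were 4-fold higher in either or by nitrogen in glucose, or 4-fold lower by carbon with ammonium. At 2-fold, 22 of 46 genes were lower and 9 higher by nitrogen in fructose, against 23.4% and 26.04% of all genes, and 29 of 47 were lower and 6 higher by carbon with urea, against 29.2% and 27.04%. By nitrogen in glucose 0 were lower and 7 of 46 higher, against 4.31% and 7.15%, and by carbon with ammonium 8 of 45 were lower and 4 higher, against 22.6% and 19.2%. Without the 5 siderophore genes, chosen after seeing the data, 0 were 4-fold higher by nitrogen in glucose. No single ratio of a sterol gene past 4-fold changed sign under the 6 alternatives run on single genes. No paired analysis was possible because each condition has 1 library. The full depth is not known, and fructose libraries carry the larger counting error.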
